A study of Mus musculus with 4 samples.

Results

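The genes described here are 101 mouse genes that were higher with each of 3 forms of the transcription factor GATA-1 than in G1E control cells, and whose levels with both mutant forms stayed close to the level with the wild-type form. G1E is a mouse erythroblast line that lacks functional GATA-1, and RNA-seq was done on 4 groups of it. GATA-1 2RA and GATA-1 V205M are G1E cells with a mutant form, GATA-1 WT is G1E cells with the wild-type form, and the fourth group is the G1E control. Each group is 1 sample, and the labels give β-estradiol induction as the treatment of all of them, the control included. V205M is known to weaken the contact of GATA-1 with its cofactor FOG-1. The labels say neither what 2RA changes nor which construct brings in a form, nor whether the control carries a construct without GATA-1.

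A gene was a member when the deposited tables gave its level in every group, its highest level was at least 50, each GATA-1 form was at least 2 times the control, and both mutants lay within 2 times of GATA-1 WT. Of 2982 gene symbols in the 6 deposited tables, 1157 had all 4 levels and 105 met these limits. Of these, 4 were then left out by name or by name start, Bach1, Slc43a2 and Tmem14c among them, which leaves 101. Of 12931 genes tested, the authors' tables hold those that changed more than 2-fold at an adjusted p under 0.01, so a gene that moved in no pair has no level here. A level is a number of reads divided by the size factor of its library, called scaled reads below. The levels chose the members, so the values against the control and against GATA-1 WT are given as a description, with no test. With 1 sample a group no difference could be checked against replicates, and each interval below is a 95% interval for counting error only. In bulk samples, fewer cells of a type and less RNA per cell cannot be told apart.

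GATA-1 is a zinc finger protein that binds the DNA word GATA and drives the maturation of red cell precursors. It switches on globin, heme and red cell membrane genes and switches off progenitor genes such as Gata2 and Kit, in many cases together with FOG-1. Cells without it stop at an immature stage, and a restored GATA-1 lets G1E cells mature.

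Reads summed over the listed genes lay between 276064 and 2178397 in the 6 count columns behind the levels, where the control and GATA-1 V205M have 2 columns each. Gata1 itself had 1421 scaled reads in GATA-1 2RA, 613 in GATA-1 V205M and 2652 in GATA-1 WT, against 153 in the control. Of the erythroid markers listed for this work, 9 of 10 were in the tables, and the other lists gave 6 of 9 mast cell, 1 of 8 megakaryocyte, 0 of 6 macrophage and 0 of 5 lymphocyte markers. The erythroid marker Hbb-b1, an adult beta-globin, had 2342 scaled reads in GATA-1 2RA, 91.6 in GATA-1 V205M and 39108 in GATA-1 WT, against 238 in the control. Summed over the 7 erythroid markers with all levels, the level was 4127 scaled reads in GATA-1 2RA, 4197 in GATA-1 V205M and 62807 in GATA-1 WT, against 3298 in the control. Summed over the 6 mast cell markers, it was 2398 scaled reads in GATA-1 2RA, 2435 in GATA-1 V205M and 183 in GATA-1 WT, against 5537 in the control. The tables list all 6 as lower in GATA-1 WT, but the mutants were mixed. Cpa3 and Gzmb are listed as lower in both mutants, Tpsab1 as higher in both, Ms4a2 as lower in GATA-1 2RA and higher in GATA-1 V205M, Hdc as higher in GATA-1 V205M alone, and Kit in neither. The erythroid and mast cell markers moved between the same groups as the members, and their part in the members' values was not tested.

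By roles assigned for this work after the values were seen, the members include 16 genes of membrane traffic, 14 of signalling and ubiquitin, 13 of transcription and RNA processing and 12 of metabolism and mitochondria. Csf2rb, Nomo1 and Malat1 were among those furthest above the control. The median member had 295 scaled reads in GATA-1 2RA, 292 in GATA-1 V205M and 309 in GATA-1 WT, against 100.3 in the control. Levels ran from 35.0 to 20883 scaled reads in GATA-1 2RA, from 43.5 to 16434 in GATA-1 V205M and from 50.4 to 11528 in GATA-1 WT, against 4.94 to 2939 in the control. The median fold over the control was 3.02 in GATA-1 2RA, 2.87 in GATA-1 V205M and 3.36 in GATA-1 WT. On the log2 scale, with 1 scaled read added to each level, the median changes were 1.58, 1.51 and 1.72, and over all 1157 genes with 4 levels they were 0.41, 0.21 and 0.86, in the order GATA-1 2RA, GATA-1 V205M and GATA-1 WT. For comparison, 217 genes were at least 2 times the control in GATA-1 WT while both mutants stood at least 2-fold below GATA-1 WT. Their median log2 changes were 0.36, 0.32 and 2.25 in the same order. The members together took 14.99% of the scaled reads of the 1157 genes in GATA-1 2RA, 14.6% in GATA-1 V205M and 10.5% in GATA-1 WT, against 4.75% in the control.

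The authors' deposited tables list 100 of the 101 members as higher in GATA-1 2RA than in the control, where 4.86% of all tested genes are so listed. All 101 are listed as higher in GATA-1 V205M (background 4.83%) and all 101 in GATA-1 WT (background 8.17%). None is listed as lower, where the background is 2.61% in GATA-1 2RA, 3.32% in GATA-1 V205M and 4.86% in GATA-1 WT. The rule used these contrasts, so nothing is read from these shares. The exception is Rogdi, which had 49 reads in GATA-1 2RA. Neither table that sets a mutant against GATA-1 WT lists a member, while 3.33% of tested genes are listed as higher and 4.04% as lower in GATA-1 2RA, and 3.7% as higher and 5.65% as lower in GATA-1 V205M. The 2-fold limits of the rule and of the tables exclude such a listing. An edgeR exact test on the recovered reads, at an adjusted p limit of 0.05 and with an assumed biological coefficient of variation of 0.4 in place of replicates, called 11 members higher in GATA-1 2RA, where 7.15% of the genes with both levels were so called, 9 in GATA-1 V205M (4.25%) and 15 in GATA-1 WT (10.4%). With 0.2 it called 101 members in GATA-1 2RA (41.5%), 98 in GATA-1 V205M (34.3%) and 101 in GATA-1 WT (52.4%). This test uses the same contrasts as the rule and compares single samples.

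The control had few reads for some members. The smallest number was 7 reads, for Icam2, and 14 members had under 50. Over the members, the log2 ratio between the 2 control columns had an SD of 0.40, against 0.13 between the 2 columns of GATA-1 V205M. Over all genes with at least 500 reads the SDs were closer, 0.13 in the control and 0.10 in GATA-1 V205M. What the 2 columns of a group are, separate cultures or runs of 1 library, is stated in none of the sources used here. For 52 members the counting intervals of all 3 folds over the control lay wholly above 2, and for the other 49 at least 1 of them reached down to 2 or below.

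**Figure D1:**
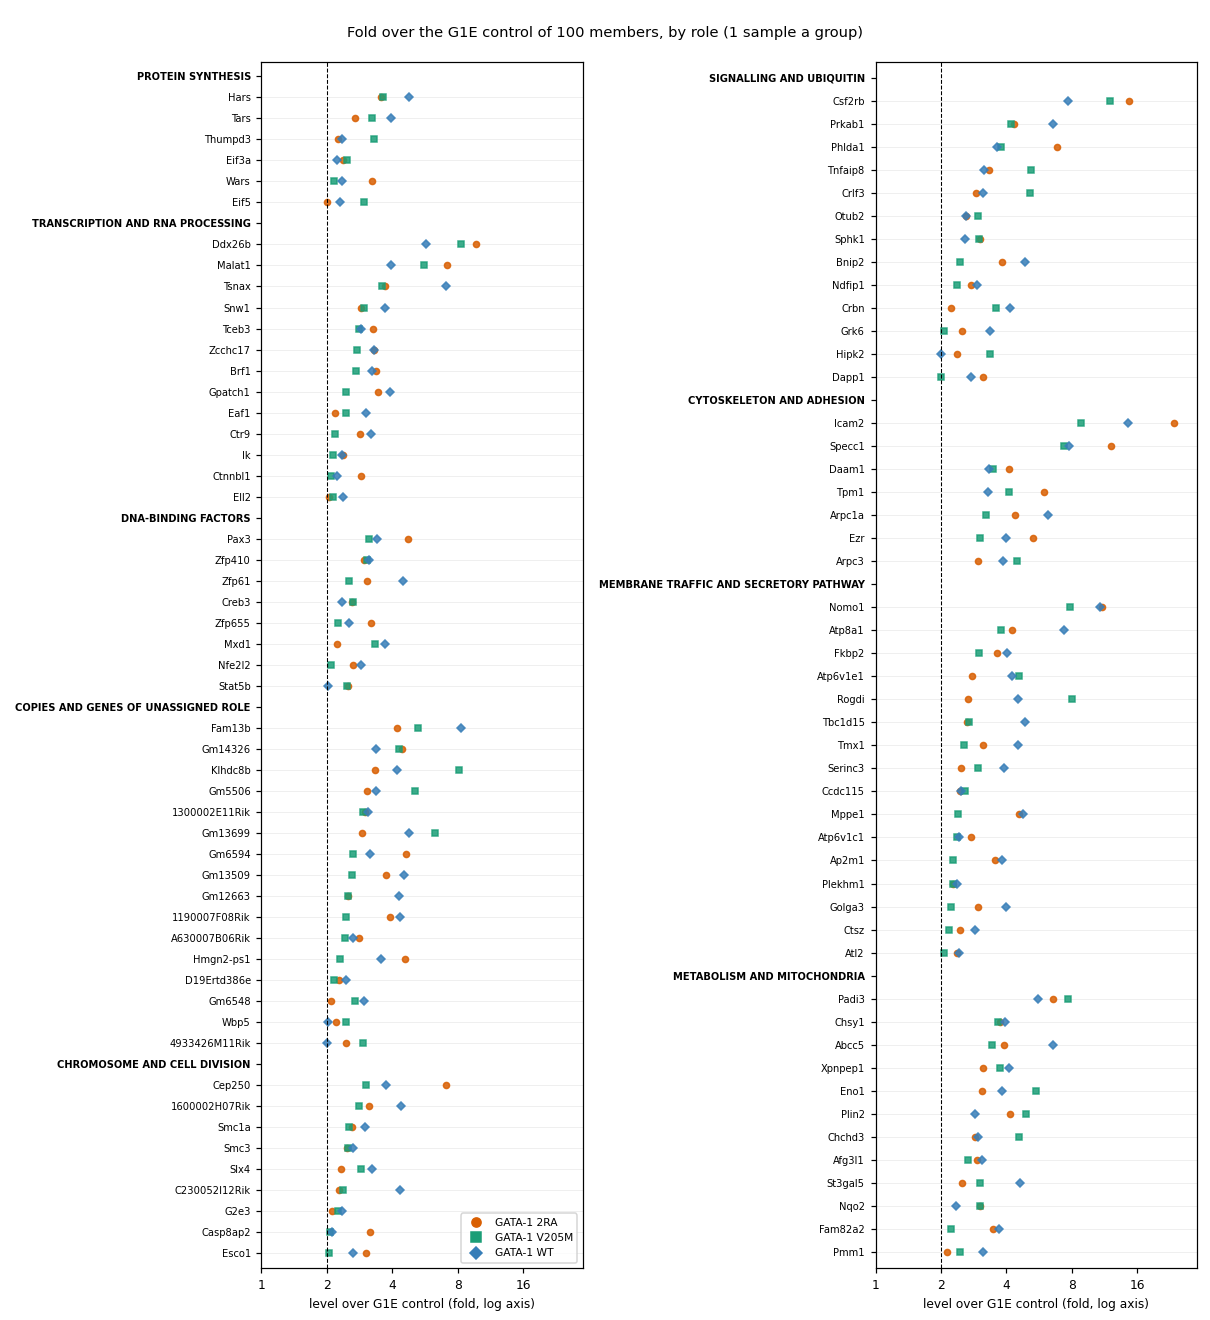
Fold over the G1E control (log axis) of 100 of the 101 members, 1 row a gene, grouped by role, with a circle for GATA-1 2RA, a square for GATA-1 V205M and a diamond for GATA-1 WT; the dashed line is the 2-fold limit of the rule. All points lie at or right of the line, from 2.00-fold to the 23.6-fold of Icam2 in GATA-1 2RA, and for 96 of all 101 members the forms lie within a ratio of 2.

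The size of the response depends on how libraries are scaled. Setting equal sums over the 1157 genes moved all log2 changes against the control by -0.32 in GATA-1 2RA, -0.31 in GATA-1 V205M and -0.73 in GATA-1 WT. Setting equal medians moved them by -0.48, -0.10 and -0.59 in the same order. Members were chosen at 2-fold or more over the control, so shifts of this size cannot turn a direction against the control. Both other scalings raise every ratio of a mutant to GATA-1 WT, so they put to the test only members that were lower than GATA-1 WT. Of 61 members lower in GATA-1 2RA, 26 stayed lower under both, and of 70 lower in GATA-1 V205M, 25 did. Both also lower every ratio of GATA-1 2RA to GATA-1 V205M, and of 59 members higher in GATA-1 2RA, 27 stayed higher.

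With the authors' scaling, 61 of 101 members were lower in GATA-1 2RA than in GATA-1 WT and 70 were lower in GATA-1 V205M than in GATA-1 WT, against 620 and 679 of all 1157 genes. These majorities turn with the scaling: under equal sums GATA-1 2RA was the lower for 26 members and GATA-1 V205M for 30, and under equal medians for 46 and 25. The median ratio to GATA-1 WT was 0.942 in GATA-1 2RA, with a range of 0.511 to 1.91, and 0.892 in GATA-1 V205M, with a range of 0.502 to 1.92. The counting interval of the ratio was above 1 for 25 members and below 1 for 39 in GATA-1 2RA, and above 1 for 24 and below 1 for 47 in GATA-1 V205M. GATA-1 WT was the highest form for 49 members, GATA-1 2RA for 30 and GATA-1 V205M for 22. The lowest form was GATA-1 2RA for 32 members, GATA-1 V205M for 50 and GATA-1 WT for 19. The most frequent order, GATA-1 WT above GATA-1 2RA above GATA-1 V205M, held for 29 members (28.7%), and for 289 of the 1157 genes (24.98%). The highest form exceeded the lowest by a median of 1.51 times, and 49 members had all forms within 1.5 times of each other.

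**Figure D2:**
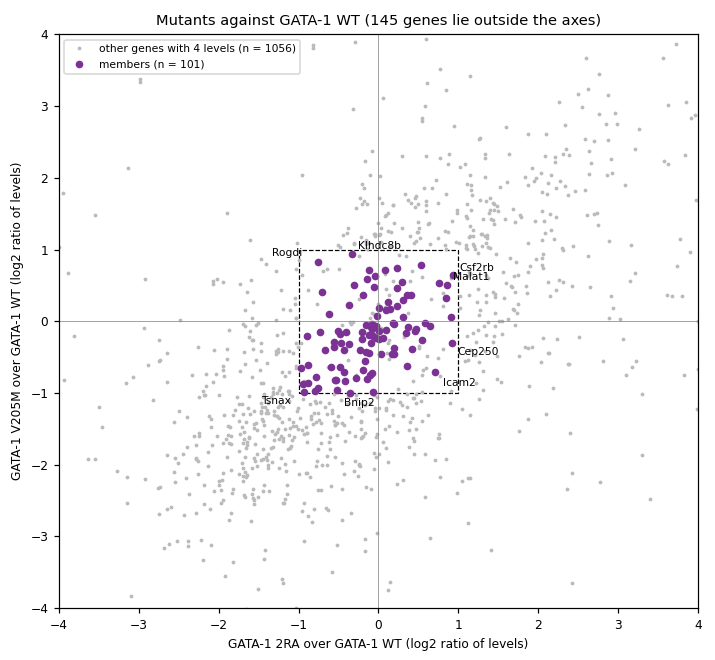
Log2 ratio of levels in GATA-1 2RA over GATA-1 WT (horizontal) and in GATA-1 V205M over GATA-1 WT (vertical) for the 101 members (purple) and 1056 other genes with 4 levels (grey); 145 genes lie outside the axes. The dashed square is the 2-fold limit of the rule, which holds the members by construction, and within it they spread over all 4 quadrants.

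The comparison of the mutants with each other is not limited directly by the rule, which allows ratios of up to 4 between them. GATA-1 2RA was lower than GATA-1 V205M for 42 members, against 510 of the 1157 genes, and the median ratio was 1.04 with a range of 0.334 to 2.68. The counting interval of the ratio lay above 1 for 40 members, below 1 for 24 and on both sides of 1 for 37. The authors' table lists 2 members as higher in GATA-1 2RA, where the background is 3.6%, and 3 as lower, where it is 2.62%, so both counts are near the background. The members listed as higher were Icam2 and Cep250, and those listed as lower were Klhdc8b, Rogdi and Gm13699. Under equal medians 74 members were lower in GATA-1 2RA than in GATA-1 V205M.

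The GATA words were looked for in the promoters of the members, because GATA-1 binds them. RefSeq promoters of GRCm38.p6 (250 bases before to 50 after a gene start) were found for 74 members, with 94 windows, and 27 members had no entry. Both strands were searched for AGATAA or its variant ending in G, which reads AGATAG, and likewise for TGATAA or its variant ending in G, which reads TGATAG. At least 1 of them stood in 23 of 94 windows, or 24.5% (95% exact binomial interval 16.2 to 34.4). The share was 29.8% of all 32851 promoters, 26.0% of protein-coding promoters, 22.9% of the promoters of genes with 4 levels and 24.1% of those of the 217 genes that both mutants failed to raise as GATA-1 WT did. The share in the members' windows was thus within its counting interval of each of these. The sequences shown include the 3 windows with more than 1 word before the start and 1 window of Specc1, which is among the 10 members furthest above the control. The window of Plin2 is shown too, since its word is the nearest among words that lie wholly before a start. Each sequence gives the 250 bases before the gene start, 5′ to 3′ on the gene's strand, with GATA words of either strand in capitals.
1600002H07Rik (chr17:24220852-24221101, minus strand): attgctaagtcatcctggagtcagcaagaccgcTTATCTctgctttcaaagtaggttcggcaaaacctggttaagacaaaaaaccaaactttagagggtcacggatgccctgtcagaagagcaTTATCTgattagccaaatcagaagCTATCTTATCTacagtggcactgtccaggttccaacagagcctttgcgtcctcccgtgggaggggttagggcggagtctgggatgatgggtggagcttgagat
C230052I12Rik (chr7:35396768-35397017, minus strand): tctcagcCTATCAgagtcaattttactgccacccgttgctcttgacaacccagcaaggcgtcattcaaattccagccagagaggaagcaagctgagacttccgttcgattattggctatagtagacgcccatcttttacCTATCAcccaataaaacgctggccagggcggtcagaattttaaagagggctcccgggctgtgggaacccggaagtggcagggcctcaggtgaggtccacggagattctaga
Ctsz (chr2:174439040-174439289, minus strand): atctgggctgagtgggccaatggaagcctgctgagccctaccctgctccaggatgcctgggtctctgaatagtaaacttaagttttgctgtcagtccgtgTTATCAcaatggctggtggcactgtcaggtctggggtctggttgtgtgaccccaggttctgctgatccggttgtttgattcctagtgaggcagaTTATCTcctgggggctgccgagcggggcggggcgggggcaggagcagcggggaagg
Specc1 (chr11:62076774-62077023, plus strand): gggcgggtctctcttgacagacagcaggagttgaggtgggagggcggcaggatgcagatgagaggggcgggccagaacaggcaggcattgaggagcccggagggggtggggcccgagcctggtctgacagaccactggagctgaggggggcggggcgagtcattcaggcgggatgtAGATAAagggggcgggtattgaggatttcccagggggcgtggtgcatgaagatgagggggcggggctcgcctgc
Plin2 (chr4:86670060-86670309, minus strand): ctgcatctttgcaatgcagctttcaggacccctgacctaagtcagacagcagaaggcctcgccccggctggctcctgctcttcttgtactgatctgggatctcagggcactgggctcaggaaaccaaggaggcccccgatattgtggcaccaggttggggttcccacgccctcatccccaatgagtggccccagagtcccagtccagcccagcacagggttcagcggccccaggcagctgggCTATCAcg
In the window of 1600002H07Rik, now named Tedc2, the 4 words begin 217, 127, 103 and 98 bases before the start, and the last pair overlap by 1 base. C230052I12Rik, now Faap24, has words 243 and 111 bases before its start, and Ctsz has them at 150 and 56. Specc1 has 2 annotated starts, and the word of the one shown lies 74 bases before it. The word of Plin2 lies 8 bases before the start. A word is a match of letters, and binding was not measured here.

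Another 5 words were counted in the same windows on both strands. The Sp/KLF-type word GGGCGG stood in 65 of 94 member windows (69.1%, interval 58.8 to 78.3), against 35.7% of all promoters, 46.2% of protein-coding promoters, 60.9% of those of genes with 4 levels and 57.9% of those of the 217 genes. The CACCC-type word CCNCNCCC, which can overlap it, stood in 71 (75.5%, interval 65.6 to 83.8), against 49.5%, 56.6%, 70.5% and 72.3% in the same sets. The ETS-type word CCGGAA stood in 27 (28.7%, interval 19.9 to 39.0), against 14.9%, 18.7%, 18.6% and 23.1%. TGANNNNGC, the core of the NRF2-type element, stood in 43 (45.7%, interval 35.4 to 56.3), against 41.3%, 41.7%, 41.9% and 45.1%. TGACGTCA, known as the CRE, stood in 3 (3.19%, interval 0.663 to 9.04), against 1.79%, 2.23%, 2.97% and 6.15%. Median GC content was 59.8% in the members' windows, against 52.7% in all promoters, 56.3% in protein-coding promoters, 60.7% in those of genes with 4 levels and 59.7% in those of the 217 genes. Some genes hold more than 1 window, and the members are part of the larger sets.

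Members furthest above the control, by their lowest form, came from several roles: a receptor, an adhesion molecule, a noncoding RNA and proteins of the endoplasmic reticulum and of transcript ends. Csf2rb (chr15:78325800-78351001, GRCm38.p6, as for all positions here) encodes the shared beta chain of the receptors for IL-3, IL-5 and GM-CSF. It had 5095 scaled reads in GATA-1 2RA, 4158 in GATA-1 V205M and 2664 in GATA-1 WT, against 347 in the control. All forms stood well above the control and both mutants above GATA-1 WT. Its fold over the control was 14.7-fold (95% counting interval 13.2 to 16.3) in GATA-1 2RA, 11.99-fold (10.8 to 13.3) in GATA-1 V205M and 7.68-fold (6.92 to 8.55) in GATA-1 WT. GATA-1 2RA reached 1.91-fold (1.84 to 1.99) and GATA-1 V205M 1.56-fold (1.505 to 1.62) of the GATA-1 WT level. These levels are uncertain beyond counting error, since the authors' counting could split or share reads with the neighbour Csf2rb2, which is 95.1% identical.

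Malat1 (chr19:5795690-5802672), an abundant noncoding RNA of nuclear speckles, was the member with the highest level in every group. It had 20883 scaled reads in GATA-1 2RA, 16434 in GATA-1 V205M and 11528 in GATA-1 WT, against 2939 in the control. The order of the groups was the one seen for Csf2rb, with GATA-1 2RA highest. Folds over the control were 7.11-fold (95% counting interval 6.86 to 7.37) in GATA-1 2RA, 5.59-fold (5.40 to 5.80) in GATA-1 V205M and 3.92-fold (3.78 to 4.07) in GATA-1 WT. Ddx26b, now named Ints6l and related to a subunit of the Integrator complex that processes ends of transcripts, repeated this order with 831 scaled reads in GATA-1 2RA, 709 in GATA-1 V205M and 492 in GATA-1 WT, against 86.1 in the control. For these 3 genes both mutants stood above GATA-1 WT, by 1.43 to 1.91 times as deposited, while the order of the mutants changed with the scaling.

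Nomo1 (chr7:46033696-46084212), a membrane protein of the endoplasmic reticulum, had 1842 scaled reads in GATA-1 2RA, 1307 in GATA-1 V205M and 1795 in GATA-1 WT, against 167 in the control. As deposited, GATA-1 2RA and GATA-1 WT lay within counting error of each other here, at a ratio of 1.03-fold (0.973 to 1.08). GATA-1 V205M was lower than GATA-1 2RA under each scaling. Its folds over the control were 11.01-fold (95% counting interval 9.52 to 12.8) in GATA-1 2RA, 7.81-fold (6.76 to 9.07) in GATA-1 V205M and 10.7-fold (9.28 to 12.5) in GATA-1 WT. Icam2 (chr11:106377656-106388139), an adhesion molecule that binds leukocyte integrins, had 116 scaled reads in GATA-1 2RA, 43.5 in GATA-1 V205M and 71.2 in GATA-1 WT, against 4.94 in the control. That control level rests on 7 reads, so the folds of 23.6-fold (95% counting interval 9.94 to 73.1) in GATA-1 2RA, 8.81-fold (3.66 to 27.6) in GATA-1 V205M and 14.4-fold (6.02 to 44.9) in GATA-1 WT are wide. Icam2 differed most between the mutants in the direction of GATA-1 2RA, at 2.68-fold (2.06 to 3.49) the GATA-1 V205M level.

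Specc1, a coiled-coil protein of the cytospin family, had 437 scaled reads in GATA-1 2RA, 266 in GATA-1 V205M and 279 in GATA-1 WT, against 36.1 in the control. GATA-1 2RA was above GATA-1 V205M under each scaling. As deposited, the levels of Specc1 in GATA-1 V205M and GATA-1 WT differed by no more than counting error, at a ratio of 0.954-fold (0.841 to 1.08). Prkab1 encodes a beta subunit of AMPK, the kinase that senses cell energy, and had 1088 scaled reads in GATA-1 2RA, 1054 in GATA-1 V205M and 1642 in GATA-1 WT, against 251 in the control. Both mutants fell short of GATA-1 WT here, at 0.663-fold (0.622 to 0.706) and 0.642-fold (0.607 to 0.680), under each scaling. Atp8a1, a flippase that moves phospholipids across membranes, showed the same order more strongly, with 387 scaled reads in GATA-1 2RA, 342 in GATA-1 V205M and 673 in GATA-1 WT, against 91.1 in the control. Fam13b had 61.4 scaled reads in GATA-1 2RA, 76.5 in GATA-1 V205M and 120.3 in GATA-1 WT, against 14.6 in the control, and Padi3, which turns arginine into citrulline, had 59.3 scaled reads in GATA-1 2RA, 69.2 in GATA-1 V205M and 50.4 in GATA-1 WT, against 9.02 in the control. The control levels of these last genes rest on 25 and 12 reads.

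**Figure D3:**
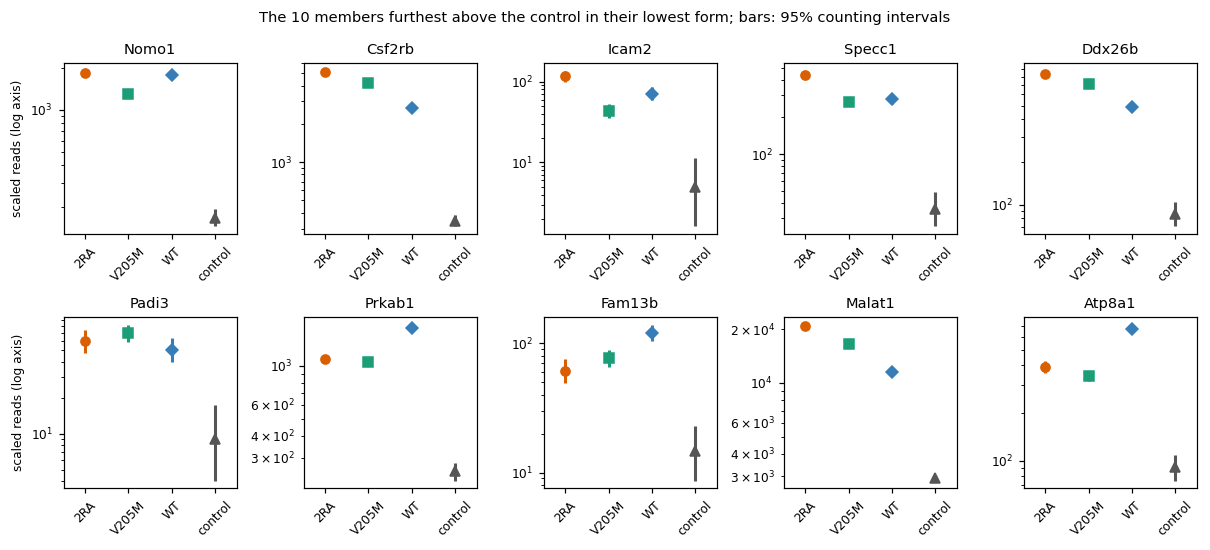
Levels in scaled reads (log axis) of the 10 members furthest above the control in their lowest form, 1 panel a gene, with GATA-1 2RA, GATA-1 V205M, GATA-1 WT and the control from left to right and bars for 95% counting intervals. The control point is lowest in each panel. GATA-1 2RA is highest for Csf2rb, Malat1, Ddx26b, Icam2, Specc1 and, within counting error of GATA-1 WT, Nomo1. GATA-1 WT is highest for Prkab1, Atp8a1 and Fam13b, and GATA-1 V205M for Padi3.

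Genes of protein synthesis formed a group of 6, with median folds over the control of 2.53 in GATA-1 2RA, 3.08 in GATA-1 V205M and 2.35 in GATA-1 WT. Here 3 of them are tRNA synthetases, enzymes that load amino acids onto tRNA. Hars, for histidine, had 883 scaled reads in GATA-1 2RA, 899.9 in GATA-1 V205M and 1186 in GATA-1 WT, against 249 in the control, and Tars, for threonine, had 882 scaled reads in GATA-1 2RA, 1058 in GATA-1 V205M and 1294 in GATA-1 WT, against 329 in the control. Both were lower in GATA-1 2RA than in GATA-1 WT under each scaling. Wars, for tryptophan, went the other way, with 733 scaled reads in GATA-1 2RA, 489 in GATA-1 V205M and 536 in GATA-1 WT, against 228 in the control, and GATA-1 2RA was above GATA-1 V205M under each scaling. Among 20 cytosolic tRNA synthetases, a list put together after the values were seen, 11 were in the tables and 3 were members. The tables list 4 as higher in GATA-1 2RA, 5 in GATA-1 V205M and 9 in GATA-1 WT, and none as lower. Of all tested genes, 4.86%, 4.83% and 8.17% are listed as higher in the same order, and 2.61%, 3.32% and 4.86% as lower. The 3 members are in each count of higher genes by the rule. Aars, for alanine, is no member, since it has no level in GATA-1 2RA, and it stood at 1.22-fold in GATA-1 V205M and 3.48-fold in GATA-1 WT. The initiation factor Eif5, which triggers GTP hydrolysis by eIF2, was just inside the rule at 2.01-fold in GATA-1 2RA, with 1168 scaled reads in GATA-1 2RA, 1719 in GATA-1 V205M and 1336 in GATA-1 WT, against 583 in the control. Eif3a, a core subunit of the eIF3 initiation complex, had 899 scaled reads in GATA-1 2RA, 937 in GATA-1 V205M and 844 in GATA-1 WT, against 379 in the control.

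Transcription and RNA processing gave 13 members, with median folds of 3.27, 2.73 and 3.22 in GATA-1 2RA, GATA-1 V205M and GATA-1 WT. As deposited, GATA-1 2RA was below GATA-1 WT for 6 of them and GATA-1 V205M for 11, where the second count turns to 3 under both other scalings. Among the 13, 4 are elongation factors of RNA polymerase II. Tceb3, now Eloa and the large subunit of elongin, had 937 scaled reads in GATA-1 2RA, 801 in GATA-1 V205M and 820.0 in GATA-1 WT, against 286 in the control. Ell2 and its partner Eaf1 belong to the super elongation complex. Ell2 had 280.1 scaled reads in GATA-1 2RA, 292 in GATA-1 V205M and 324 in GATA-1 WT, against 137 in the control, and Eaf1 had 286 scaled reads in GATA-1 2RA, 321 in GATA-1 V205M and 396 in GATA-1 WT, against 131 in the control. Ctr9, a scaffold of the PAF1 complex, had 286 scaled reads in GATA-1 2RA, 218 in GATA-1 V205M and 321 in GATA-1 WT, against 100.3 in the control. Folds of these 4 genes thus lay between 2.04 and 3.27. In a list of 23 elongation genes chosen after the values were seen, 9 were in the tables. Of these, 4 were listed as higher in GATA-1 2RA, 4 in GATA-1 V205M and 5 in GATA-1 WT (background 4.86%, 4.83% and 8.17%). Tceb2 was listed as lower in GATA-1 2RA (background 2.61%). In each mutant the genes listed as higher were the 4 members alone, which the rule had chosen as higher. Brf1, part of the factor that places RNA polymerase III at tRNA genes, had 153 scaled reads in GATA-1 2RA, 125 in GATA-1 V205M and 147 in GATA-1 WT, against 45.6 in the control. Tsnax, the partner of the nucleic-acid-binding protein translin, lay at the lower limit of the rule in both mutants, with 80.0 scaled reads in GATA-1 2RA, 76.9 in GATA-1 V205M and 152 in GATA-1 WT, against 21.6 in the control.

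The 8 DNA-binding factors had median folds of 2.79, 2.59 and 2.99 in GATA-1 2RA, GATA-1 V205M and GATA-1 WT, and the highest fold was 4.71, for Pax3 in GATA-1 2RA. Nfe2l2 encodes NRF2, which turns on genes against oxidants, and had 784 scaled reads in GATA-1 2RA, 625 in GATA-1 V205M and 853 in GATA-1 WT, against 299 in the control. Of 12 NRF2 targets, a list chosen after the values were seen, none was a member. The tables list 1 as higher in GATA-1 2RA (Srxn1), 1 in GATA-1 V205M (Prdx1) and none in GATA-1 WT. Of all tested genes, 4.86%, 4.83% and 8.17% are so listed in the same order, so these counts are near the background. Stat5b, a factor downstream of the erythropoietin and IL-3 receptors, had 357 scaled reads in GATA-1 2RA, 353 in GATA-1 V205M and 288 in GATA-1 WT, against 143 in the control. Its folds of 2.50-fold in GATA-1 2RA, 2.47-fold in GATA-1 V205M and 2.02-fold in GATA-1 WT put it close to the 2-fold limit in GATA-1 WT. Mxd1, a partner of MAX that opposes MYC, had 119 scaled reads in GATA-1 2RA, 179 in GATA-1 V205M and 198 in GATA-1 WT, against 53.6 in the control. GATA-1 2RA was below GATA-1 WT for Mxd1 under each scaling. Zfp410, a zinc finger factor known to control the chromatin gene Chd4, had 171 scaled reads in GATA-1 2RA, 176 in GATA-1 V205M and 180.1 in GATA-1 WT, against 57.6 in the control. Its forms were thus nearly level as deposited, which depends on the scaling. Pax3, a developmental factor of muscle and neural crest, had 81.4 scaled reads in GATA-1 2RA, 54.2 in GATA-1 V205M and 58.6 in GATA-1 WT, against 17.3 in the control, the last resting on 20 reads.

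Chromosome and cell division genes numbered 9, with median folds of 2.60, 2.50 and 2.99 in GATA-1 2RA, GATA-1 V205M and GATA-1 WT. All 9 were lower in GATA-1 V205M than in GATA-1 WT as deposited, and that direction held under each scaling for 1600002H07Rik and C230052I12Rik and changed with the scaling for the other 7. Cohesin, the ring that holds sister chromatids and forms chromatin loops, gave Smc1a and Smc3, which make the ring, and Esco1, which acetylates Smc3. Smc1a had 837 scaled reads in GATA-1 2RA, 810.1 in GATA-1 V205M and 966 in GATA-1 WT, against 322 in the control. Smc3 had 262 scaled reads in GATA-1 2RA, 265 in GATA-1 V205M and 280.3 in GATA-1 WT, against 106 in the control. Esco1 had 253 scaled reads in GATA-1 2RA, 171 in GATA-1 V205M and 220.4 in GATA-1 WT, against 83.3 in the control, and its fold in GATA-1 V205M, 2.05, was near the limit. In the 14 genes of cohesin and its regulators, a list chosen after the values were seen, 5 were in the tables. Of these, 3 were listed as higher in each mutant: the members Smc1a, Smc3 and Esco1, which the rule had chosen as higher. In GATA-1 WT 4 were listed as higher, where Stag2 joined at 2.47-fold. Of all tested genes, 4.86% are listed as higher in GATA-1 2RA, 4.83% in GATA-1 V205M and 8.17% in GATA-1 WT. The loader subunit Mau2 was listed as lower in GATA-1 V205M at 0.357 of the control (background 3.32%). Cep250, which links the centrioles, had 295 scaled reads in GATA-1 2RA, 127 in GATA-1 V205M and 156 in GATA-1 WT, against 41.9 in the control. GATA-1 2RA stood apart here, at 2.32-fold (1.99 to 2.72) the GATA-1 V205M level. C230052I12Rik, which encodes the Faap24 subunit of the Fanconi anemia core complex, had 358 scaled reads in GATA-1 2RA, 376 in GATA-1 V205M and 687 in GATA-1 WT, against 158 in the control, close to the lower limit against GATA-1 WT in both mutants.

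Membrane traffic and the secretory pathway had 16 members, with median folds of 2.75, 2.57 and 3.99 in GATA-1 2RA, GATA-1 V205M and GATA-1 WT. As deposited, GATA-1 2RA was below GATA-1 WT for 14 of them, at a median ratio of 0.875, and GATA-1 V205M for 13, at 0.748. These directions depend on the scaling, since equal sums gave 6 members below GATA-1 WT in GATA-1 2RA, with 8 in GATA-1 V205M, and equal medians gave 9, with 6 in GATA-1 V205M. The V-ATPase, the proton pump that acidifies lysosomes and endosomes, gave Atp6v1c1 and Atp6v1e1. Atp6v1c1 had 384 scaled reads in GATA-1 2RA, 331 in GATA-1 V205M and 338 in GATA-1 WT, against 140.3 in the control. Atp6v1e1 had 112 scaled reads in GATA-1 2RA, 184 in GATA-1 V205M and 172 in GATA-1 WT, against 40.5 in the control, with GATA-1 2RA below GATA-1 WT under each scaling. Ccdc115, needed for the assembly of this pump, had 521 scaled reads in GATA-1 2RA, 549.9 in GATA-1 V205M and 525 in GATA-1 WT, against 214 in the control. Its forms were thus nearly equal as deposited, which depends on the scaling. Among 20 V-ATPase genes, a list chosen after the values were seen, 9 were in the tables. Of these, 5 were listed as higher in GATA-1 2RA, 4 in GATA-1 V205M and 6 in GATA-1 WT, with none lower. Of all tested genes, 4.86%, 4.83% and 8.17% are listed as higher in the same order, and 2.61%, 3.32% and 4.86% as lower. The members Atp6v1c1 and Atp6v1e1 are in each count of higher genes by the rule. Atp6v0b passed all limits but one, at 0.490 of GATA-1 WT in GATA-1 V205M. Tbc1d15, which switches off the small GTPase Rab7, had 327 scaled reads in GATA-1 2RA, 332 in GATA-1 V205M and 605 in GATA-1 WT, against 124 in the control. Both mutants stayed below GATA-1 WT for it under each scaling. Rogdi differed most between the forms, with 35.0 scaled reads in GATA-1 2RA, 105 in GATA-1 V205M and 59.2 in GATA-1 WT, against 13.1 in the control. GATA-1 2RA had 0.334-fold (0.240 to 0.457) of the GATA-1 V205M level, and the control rests on 17 reads. Plekhm1, an adaptor in the fusion of endosomes with lysosomes, had 171 scaled reads in GATA-1 2RA, 170.4 in GATA-1 V205M and 178 in GATA-1 WT, against 75.3 in the control.

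**Figure D4:**
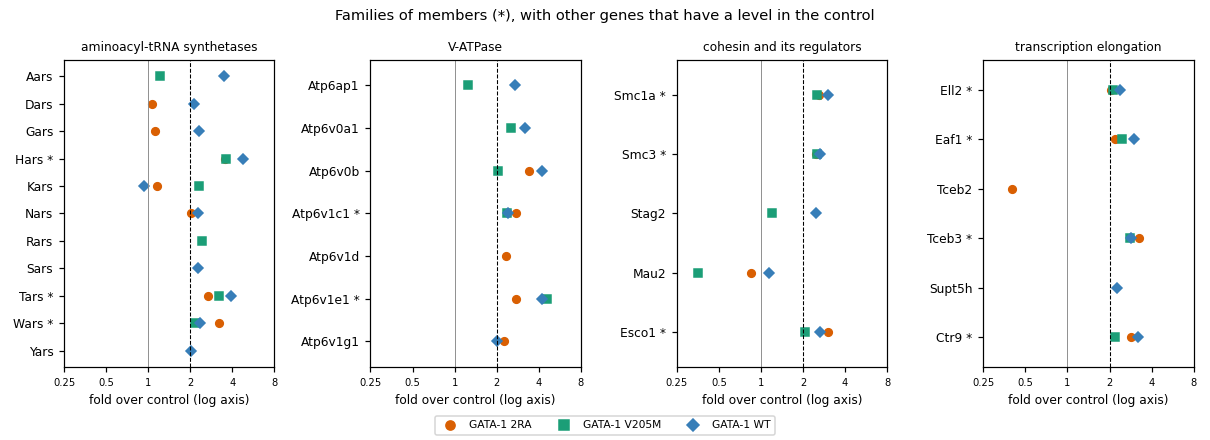
Fold over the control (log axis) of genes in 4 families that hold members (marked *), with a circle for GATA-1 2RA, a square for GATA-1 V205M and a diamond for GATA-1 WT, a grey line at 1 and a dashed line at 2. A point is missing where no table gives the level; members lie right of the dashed line in all forms, while Kars in GATA-1 WT, Mau2 in both mutants and Tceb2 in GATA-1 2RA lie left of 1.

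Cytoskeleton and adhesion gave 7 members, and GATA-1 2RA had the highest median fold, 5.29, against 4.13 in GATA-1 V205M and 3.96 in GATA-1 WT. GATA-1 2RA was above GATA-1 V205M for 6 of the 7 as deposited and under equal sums, and for 5 under equal medians. Tpm1, a tropomyosin that lines actin filaments also in the red cell skeleton, had 792 scaled reads in GATA-1 2RA, 550.3 in GATA-1 V205M and 440.2 in GATA-1 WT, against 133 in the control. Both mutants stood above GATA-1 WT as deposited, and GATA-1 2RA was above GATA-1 V205M under each scaling. Ezr encodes ezrin, which ties actin to the plasma membrane, and had 689 scaled reads in GATA-1 2RA, 396 in GATA-1 V205M and 516 in GATA-1 WT, against 130.4 in the control. Arpc1a and Arpc3 are subunits of the Arp2/3 complex, which branches actin filaments. Arpc1a had 662 scaled reads in GATA-1 2RA, 487 in GATA-1 V205M and 945 in GATA-1 WT, against 152 in the control, with both mutants lower than GATA-1 WT under each scaling. Arpc3, the exception in the order of the mutants, had 303 scaled reads in GATA-1 2RA, 457 in GATA-1 V205M and 391 in GATA-1 WT, against 102 in the control. Of 9 Arp2/3 genes, a list chosen after the values were seen, the tables list 2 as higher in each form. They are the members Arpc1a and Arpc3, which the rule had chosen as higher. The background is 4.86% in GATA-1 2RA, 4.83% in GATA-1 V205M and 8.17% in GATA-1 WT. Arpc1b is listed as lower in GATA-1 V205M (background 3.32%) and Actr3 as lower in GATA-1 WT (background 4.86%).

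Signalling and ubiquitin genes numbered 14, with median folds of 3.08, 3.19 and 3.26 in GATA-1 2RA, GATA-1 V205M and GATA-1 WT. Besides Csf2rb and Prkab1 they include Dapp1, an adaptor of B cell signalling that binds membrane phosphoinositides, with 1327 scaled reads in GATA-1 2RA, 849 in GATA-1 V205M and 1161 in GATA-1 WT, against 424 in the control. Its V205M fold of 2.01 was the member value nearest the limit in that form. Tnfaip8, a lipid-binding protein induced by TNF, and Crlf3, a cytokine-receptor-like factor, were highest in GATA-1 V205M as deposited. Tnfaip8 had 409 scaled reads in GATA-1 2RA, 636 in GATA-1 V205M and 387 in GATA-1 WT, against 122 in the control. Crlf3 had 284 scaled reads in GATA-1 2RA, 506 in GATA-1 V205M and 309 in GATA-1 WT, against 98.6 in the control. Phlda1 ran the other way, with GATA-1 2RA above GATA-1 V205M under each scaling, and had 111 scaled reads in GATA-1 2RA, 61.6 in GATA-1 V205M and 59.2 in GATA-1 WT, against 16.3 in the control, where the control rests on 20 reads. Sphk1, which makes sphingosine-1-phosphate, had 181 scaled reads in GATA-1 2RA, 180.0 in GATA-1 V205M and 155 in GATA-1 WT, against 59.99 in the control. Of the ubiquitin genes, Crbn, a substrate receptor of a CUL4 ubiquitin ligase, had 107 scaled reads in GATA-1 2RA, 172 in GATA-1 V205M and 199 in GATA-1 WT, against 48.1 in the control, with GATA-1 2RA below GATA-1 WT under each scaling. Otub2, a deubiquitinase, had 85.7 scaled reads in GATA-1 2RA, 96.5 in GATA-1 V205M and 85.03 in GATA-1 WT, against 32.8 in the control.

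Metabolic and mitochondrial genes gave 12 members, with median folds of 3.10, 3.56 and 3.75 in GATA-1 2RA, GATA-1 V205M and GATA-1 WT. Plin2, the coat protein of lipid droplets, had 2318 scaled reads in GATA-1 2RA, 2742 in GATA-1 V205M and 1597 in GATA-1 WT, against 555 in the control. As deposited, both mutants stood above GATA-1 WT, GATA-1 2RA at 1.45-fold (1.38 to 1.53) and GATA-1 V205M at 1.72-fold (1.64 to 1.80). Xpnpep1, an aminopeptidase that cuts before proline, had 1800.3 scaled reads in GATA-1 2RA, 2157 in GATA-1 V205M and 2387 in GATA-1 WT, against 579 in the control. St3gal5, which makes the ganglioside GM3, had 304 scaled reads in GATA-1 2RA, 368 in GATA-1 V205M and 559.9 in GATA-1 WT, against 121 in the control, with both mutants lower than GATA-1 WT under each scaling. Abcc5, an exporter of organic anions and cyclic nucleotides, had 166 scaled reads in GATA-1 2RA, 147 in GATA-1 V205M and 281 in GATA-1 WT, against 42.7 in the control, with the same direction. Of the mitochondrial genes, Chchd3, a subunit of the complex that shapes the inner membrane, had 759 scaled reads in GATA-1 2RA, 1213 in GATA-1 V205M and 785 in GATA-1 WT, against 265 in the control. GATA-1 V205M was its highest form as deposited. Afg3l1, a protease subunit of the inner membrane, had 163 scaled reads in GATA-1 2RA, 148 in GATA-1 V205M and 171 in GATA-1 WT, against 55.6 in the control.

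The glycolytic enzyme enolase 1 came with copies of its own sequence. Eno1 had 2986 scaled reads in GATA-1 2RA, 5271 in GATA-1 V205M and 3698 in GATA-1 WT, against 967 in the control. GATA-1 V205M was its highest form as deposited, at 0.566-fold (0.547 to 0.587) for GATA-1 2RA over GATA-1 V205M. Gm5506 (Eno1b) shares 99.5% of the aligned bases of the Eno1 transcript and had 2636 scaled reads in GATA-1 2RA, 4404 in GATA-1 V205M and 2915 in GATA-1 WT, against 863 in the control. The pseudogene Gm13699 (Gm4735) is 99.6% identical to Eno1 over 1302 bases and had 562 scaled reads in GATA-1 2RA, 1220.0 in GATA-1 V205M and 919.5 in GATA-1 WT, against 194 in the control. All 3 were lower in GATA-1 2RA than in GATA-1 V205M. The authors' counting could split or share reads between such copies, so each of these levels is uncertain. The same holds for Ap2m1, the mu subunit of the AP-2 adaptor in endocytosis, and its pseudogene Gm13509, 99.7% identical over 1308 bases. Ap2m1 had 672 scaled reads in GATA-1 2RA, 431 in GATA-1 V205M and 724 in GATA-1 WT, against 189 in the control, while the pseudogene had 5100.3 scaled reads in GATA-1 2RA, 3569.6 in GATA-1 V205M and 6179 in GATA-1 WT, against 1368 in the control. Per kilobase of exon, Ap2m1 had 228 scaled reads per kilobase in GATA-1 2RA, 147 in GATA-1 V205M and 246 in GATA-1 WT, against 64.4 in the control, and Gm13509 had 3899 scaled reads per kilobase in GATA-1 2RA, 2729 in GATA-1 V205M and 4724 in GATA-1 WT, against 1046 in the control, both with the same uncertainty.

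In all, 16 members had a transcript at least 95% identical to that of another gene over 300 or more bases, overlapping genes included. For 9 of them such a partner is in the tables. The pseudogenes Hmgn2-ps1 and Gm6594, with 279 and 286 bases of exon, were too short to be found by this search. Gm6548, a pseudogene of the elongation factor Eef1a1 with 96.7% identity, had 3191 scaled reads in GATA-1 2RA, 4134 in GATA-1 V205M and 4553 in GATA-1 WT, against 1535 in the control. Eef1a1 has no level in GATA-1 2RA, and had 40658 scaled reads in GATA-1 V205M and 44141 in GATA-1 WT, against 17901 in the control. Gm12663, 99.4% identical to part of Ublcp1, had 329 scaled reads in GATA-1 2RA, 330.2 in GATA-1 V205M and 566 in GATA-1 WT, against 132 in the control. Csf2rb has the neighbour Csf2rb2, 95.1% identical, with 3306 scaled reads in GATA-1 2RA, 1015 in GATA-1 V205M and 538 in GATA-1 WT, against 240.0 in the control. Csf2rb2 was no member, since GATA-1 2RA was more than 2 times GATA-1 WT. Reads could be split or shared between Csf2rb and Csf2rb2 too, so the level of Csf2rb has the same uncertainty.

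**Figure D5:**
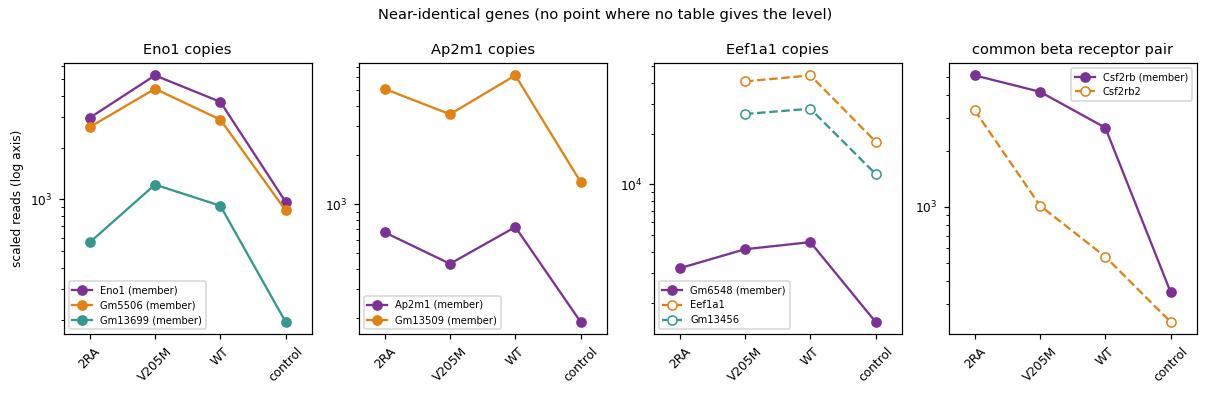
Levels in scaled reads (log axis) of members and their near-identical genes in GATA-1 2RA, GATA-1 V205M, GATA-1 WT and the control; filled points are members, open points other genes, and no point is drawn where no table gives the level. Lines join the levels of 1 gene and show the Eno1 copies, and Ap2m1 with its pseudogene, in parallel, whereas Csf2rb and Csf2rb2 differ most in GATA-1 V205M and GATA-1 WT.

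The remaining members have no role assigned here. By biotype, 93 members are protein-coding, 2 are long noncoding RNAs and 6 are pseudogenes of 1 kind or another. Klhdc8b had 77.9 scaled reads in GATA-1 2RA, 188 in GATA-1 V205M and 98.3 in GATA-1 WT, against 23.3 in the control, the highest ratio of GATA-1 V205M to GATA-1 WT among the members, 1.92-fold (1.59 to 2.32). 1190007F08Rik, now named Smim1 and known in humans for the Vel blood group, had 577 scaled reads in GATA-1 2RA, 364 in GATA-1 V205M and 639 in GATA-1 WT, against 148 in the control. The noncoding RNA 1300002E11Rik had 256 scaled reads in GATA-1 2RA, 249.6 in GATA-1 V205M and 262 in GATA-1 WT, against 85.1 in the control. It lay nearest to the median pattern of the members over the 4 groups, by the Euclidean distance of centred log2 levels, and Afg3l1, Zfp410, Zcchc17 and Brf1 came next. In these 5 genes each form lay between 2.66 and 3.35 times the control.

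Lists of genes with known roles were set beside the members and the 217 genes. Of the 1157 genes with 4 levels, 8.73% were members and 18.8% were among the 217, and each list is given by its genes with 4 levels. Heme and iron had 17 such genes, 0 of them members and 11 among the 217. Of all 37 genes on that list, the tables list 3 as higher and 2 as lower in GATA-1 2RA. For GATA-1 V205M these counts are 6 higher and 4 lower, and for GATA-1 WT 17 higher and 2 lower. Of all tested genes, 4.86% are listed as higher and 2.61% as lower in GATA-1 2RA. The shares are 4.83% and 3.32% in GATA-1 V205M, and 8.17% and 4.86% in GATA-1 WT. Tmem14c, a heme synthesis gene left out by name, is not on that list and would have been a member. The red cell membrane list had 18 such genes, with 1 member (Tpm1) and 11 among the 217. Red cell maturation had 14, with 0 and 7, and the cell cycle had 14, with 0 and 8. Glycolysis and hypoxia had 17, with 1 member (Eno1) and 6 among the 217, and autophagy and lysosome had 8, with 0 and 5. The blood transcription factor list had 17, with 2 members (Nfe2l2, Stat5b) and 2 among the 217. Bach1, a transcription factor left out by name, is not on this list and would have been a member. Growth arrest and apoptosis had 9, with 1 member (Mxd1) and 3 among the 217. Lipid metabolism had 12, with 1 member (Plin2) and 1 among the 217, and cytoskeleton and vesicle traffic had 9, with 1 (Ezr) and 1. Signalling receptors and kinases had 10, with 0 and 1, translation and stress had 6, with 0 and 2, and chromatin regulators had 2, with 0 and 1. Membership of either set follows from the same levels, so these counts are a description.

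Some genes fell outside 1 limit alone. Which of them have all levels depends on the tables that list them, so the counts at different limits are not comparable. For the fold in GATA-1 V205M, 8 genes fell short of 2 alone, the nearest being Snap23 at 1.996, while Dapp1 was inside at 2.01. For GATA-1 V205M against GATA-1 WT, 30 genes fell below the limit alone, the nearest being Lysmd3 at 0.493, against Bnip2 inside at 0.502. In GATA-1 2RA, 11 genes fell below the matching limit alone, with Lrpap1 at 0.496 outside and Fam13b at 0.511 inside. Another 7 genes lay more than 2 times above GATA-1 WT in GATA-1 2RA alone, among them Adk at 2.02 and Jun at 3.79, and Csf2rb was inside at 1.91. For the fold in GATA-1 2RA over the control 2 genes lay outside alone, Lrrc57 at 1.79 being the nearest, and Eif5 was inside at 2.01.

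The members were spread over 20 chromosomes, with 10 on chromosome 12, 9 on chromosome 2 and 8 each on chromosomes 4, 5 and 18. Within 1 Mb of each other lay 6 pairs, the closest being Ik and Hars on chromosome 18, which are 8.9 kb apart, and C230052I12Rik and Gpatch1 on chromosome 7, 73.4 kb apart. Ik, a splicing factor, had 183 scaled reads in GATA-1 2RA, 165 in GATA-1 V205M and 182 in GATA-1 WT, against 77.6 in the control. Gpatch1, an RNA-processing protein, had 121 scaled reads in GATA-1 2RA, 85.9 in GATA-1 V205M and 138 in GATA-1 WT, against 35.2 in the control. The last pair differed in the order of the forms, since in GATA-1 2RA the ratio to GATA-1 WT was 0.875 for Gpatch1 and 0.521 for C230052I12Rik.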

How the data were processed

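RNA-seq was done on 1 sample for each of GATA-1 2RA, GATA-1 V205M, GATA-1 WT and the G1E control, and the data are 6 pairwise tables. The tools named are Cuffdiff, Cufflinks, TopHat and deepTools with the build mm10, per the submitters' processing notes; none of the sources used here gives their versions or the program behind these tables. Levels are a signal that the authors deposited, reads divided by a size factor. The tables also hold the authors' deposited fold (a ratio of 2 levels), its log2, and p-values, raw and adjusted over 12931 genes, of which those changed over 2-fold at an adjusted p-value under 0.01 are listed.

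Low levels were whole multiples of 1 step, so read counts were recovered for 100% of values, with a largest residual of 6.14e-07 of a read. The levels of the control and of GATA-1 V205M were means over 2 count columns each, and those of the other groups come from 1. Groups were taken from the labels. The levels of a gene agree across the tables that list it.

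Members were chosen by the rule given above, and the members and the gene lists were chosen with earlier results of these data known. Roles and gene families were put together after the values were seen. Folds are ratios of levels; log2 changes use levels plus 1. Intervals for a fold are exact binomial (Clopper-Pearson) intervals at 95% on reads worth the precision of the deposited level. They cover counting error only, and PCR copies are not independent molecules. The genes named were taken from several sets, and not every gene of these sets is named. The first were the 10 members with the highest smallest fold and the 10 with the highest mean level over the forms. Further sets were the 6 with the smallest and the 6 with the largest ratio of forms and the 5 nearest the median pattern. The last were members on the gene lists and the 4 genes nearest each limit on either side. Other genes were named by role after their values were seen. Values of 1 member are not reported here.

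Promoters are from RefSeq (GRCm38.p6), and copies were found with blastn 2.17.0 among GENCODE transcripts. The code was run with Python 3.11.15, numpy 2.4.6, pandas 2.3.3, scipy 1.17.1, matplotlib 3.10.9 and R 4.3.3. An edgeR 4.0.16 exact test with an assumed spread served as an alternative only and was tested on simulated data, as was the read recovery. Other alternatives were other limits of the rule, other scalings, 1 count column in place of 2, a minimum read number, other pseudocounts and, added after seeing the data, leaving out members with a near-identical copy.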

Additional observations from a re-analysis of the deposited data

How the results depend on the processing

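The number of members, 101, fell to 27 with a 3-fold limit over the control, to 57 with mutants within 1.5 times of GATA-1 WT, to 37 under equal sums, to 54 under equal medians and to 52 where all 3 counting intervals had to lie above 2. Of the members found under equal sums 28, and under equal medians 42, were among the 101. It lay between 85 and 105 under the other settings run, among them each count column alone. The 85 came from leaving out the members for which the search found a near-identical copy, a setting chosen after seeing the data. The edgeR exact test with an assumed coefficient of variation of 0.4 called 11 members in GATA-1 2RA, 9 in GATA-1 V205M and 15 in GATA-1 WT, where 7.15%, 4.25% and 10.4% of the genes with both levels were called. The median log2 change against the control was 1.27 (equal sums) and 1.11 (equal medians) in GATA-1 2RA, 1.21 (equal sums) in GATA-1 V205M, and 0.99 (equal sums), 1.13 (equal medians) and 1.85 (second control column alone) in GATA-1 WT. Members lower in GATA-1 2RA than in GATA-1 WT numbered 26 under equal sums, and those lower in GATA-1 V205M than in GATA-1 WT 30 under equal sums and 25 under equal medians. Those lower in GATA-1 2RA than in GATA-1 V205M numbered 74 under equal medians. These scaling results follow from the shifts given above, and the cause of the shifts was not tested. The share of promoters with a GATA word was 21.3% before the start alone and 17.0% for AGATAA or AGATAG alone. Of 153 changes of named genes, 101 moved by more than their counting interval under equal sums and 87 under equal medians. No paired analysis was possible because each group is 1 sample. Depth limits most the 14 members with under 50 control reads.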
